A study of Mus musculus with 6 samples.

Results

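The Hox genes are the homeobox transcription factor genes that lie in 4 genomic clusters, named A to D. Of the 24061 gene identifiers in the count table, 39 carried a mouse symbol made of Hox, a cluster letter and a number, and these 39 protein-coding genes were taken as members whatever their level. RNA was sequenced in bulk from mouse lung, in 2 groups of 3 libraries, CCSP/TGFalpha and CCSP/-. Mice of both groups had been on doxycycline for 3 weeks, and the CCSP/- mice served as controls. CCSP, the club cell secretory protein, has a promoter that is widely used to direct transgenes to lung epithelium, and TGFalpha is a ligand of the epidermal growth factor receptor. The series title places the model in pulmonary fibrosis. The labels give neither the constructs, strain, age nor sex, nor whether each library came from its own animal, so p-values measure the spread between these libraries only. The comparison asks which Hox transcripts differed between lungs with and without the TGFalpha transgene under the same drug.

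Hox proteins give cells their position along the body axis. Within a cluster the genes are numbered by paralogue group, and low numbers are used towards the head and high numbers towards the tail. They bind DNA together with homeodomain partners of the Pbx, Meis and Pknox families, retinoic acid is a known inducer of the low-numbered genes, and trithorax and Polycomb complexes keep the clusters on or off. In mouse lung Hoxa5, Hoxb5 and Hoxc5, which form paralogue group 5, are known to act in the mesenchyme during airway branching, and many adult lung fibroblasts keep an anterior Hox pattern.

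The promoters of 3 members are shown here, chosen among those available for their place in the results described below. Hoxb5, the only member that passed the test used below, had no promoter in the RefSeq set. Hoxa5 had the highest level of any member, Hoxc4 was the only tested member whose libraries were all higher in CCSP/TGFalpha lungs, and Hoxa13 had no read in any library. Each stretch holds 250 bases before and 50 bases after the transcription start, is read 5' to 3' on the strand of the gene, and comes from RefSeq on GRCm38.p6, with CpG sites in capitals. Hoxa5 is at chr6:52204538-52204837 on the minus strand, Hoxc4 at chr15:103034145-103034444 on the plus strand and Hoxa13 at chr6:52260831-52261130 on the minus strand. The start used for Hoxc4 is an internal one, as the RefSeq span of the gene runs from 103018097 to 103036856. Those of Hoxa5 and Hoxa13 lie at the 5' end of their spans.
Hoxa5: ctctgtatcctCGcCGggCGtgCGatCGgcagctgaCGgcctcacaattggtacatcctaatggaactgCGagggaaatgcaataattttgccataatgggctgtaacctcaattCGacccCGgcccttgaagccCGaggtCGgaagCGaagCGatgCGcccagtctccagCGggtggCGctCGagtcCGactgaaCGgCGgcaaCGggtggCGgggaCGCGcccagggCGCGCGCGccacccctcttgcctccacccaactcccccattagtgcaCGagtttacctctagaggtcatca
Hoxc4: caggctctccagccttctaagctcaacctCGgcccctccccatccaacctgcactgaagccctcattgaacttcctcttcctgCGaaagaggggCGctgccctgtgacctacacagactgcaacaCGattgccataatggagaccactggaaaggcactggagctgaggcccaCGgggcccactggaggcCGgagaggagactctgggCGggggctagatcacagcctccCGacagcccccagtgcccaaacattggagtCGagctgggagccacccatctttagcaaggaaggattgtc
Hoxa13: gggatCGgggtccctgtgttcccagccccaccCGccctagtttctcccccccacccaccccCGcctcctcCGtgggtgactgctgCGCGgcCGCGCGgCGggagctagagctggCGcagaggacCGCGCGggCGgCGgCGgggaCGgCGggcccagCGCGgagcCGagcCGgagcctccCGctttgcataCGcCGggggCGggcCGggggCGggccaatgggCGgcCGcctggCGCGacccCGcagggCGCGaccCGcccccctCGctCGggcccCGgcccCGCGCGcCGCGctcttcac

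These windows held 29 CpG sites in Hoxa5, 9 in Hoxc4 and 45 in Hoxa13, so a high number of CpG sites did not go with a high transcript level among the 3. RefSeq gave 24 promoters for 22 of the members, with a median of 14.5 CpG sites and 57.7% G and C, against 7 sites and 52.7% over all 32851 promoters. The 10 promoters of members with enough reads to be tested had a median of 11.5 CpG sites, and the 14 of members that were not tested had 17.5. On either strand the homeodomain core TAATTA occurred in 2 of the 24 (8.33%, against 5.29% of all promoters). Both were promoters of the same gene, Hoxd11, so no other member held it. The Hox-Pbx motif TGATTGA occurred in 3 (12.5% against 2.7%), and TTTATG, a motif of posterior Hox proteins, in 5 (20.8% against 11.9%). These are letter matches in 300-base windows and were given no test.

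The libraries summed to between 21479006 and 24914322 gene counts. Levels are given in CPM on TMM-scaled library sizes, and where genes are compared with each other as CPM per kb of exon. Alveolar epithelial markers, used to check the tissue label, summed to between 13330 and 15923 CPM in CCSP/TGFalpha lungs and between 12859 and 16073 CPM in controls. Tgfa itself averaged 27.5 ± 2.09 CPM in CCSP/TGFalpha lungs and 25.8 ± 2.94 CPM in controls (SD, n = 3 each), so the row of the mouse gene did not separate the groups. Libraries of replicate 1 stood apart in both groups: 12 skeletal muscle markers summed to 2566 CPM in TGFalpha replicate 1, against 117 and 150 CPM in the other TGFalpha libraries, and to 1523 CPM in control replicate 1, against 109.5 and 114 CPM in the other controls.

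Nearly all of the Hox level lay in paralogue groups 1 to 8, and most of it in 4 to 8. Paralogue groups 4 to 8 held 67.8 ± 5.15% of the summed level per kb in CCSP/TGFalpha lungs and 74.6 ± 1.69% in controls (means of 3, SD). Paralogue groups 1 to 3 held 31.5% in CCSP/TGFalpha lungs and 24.7% in controls. For paralogue groups 9 to 13 the shares were 0.665% in CCSP/TGFalpha lungs and 0.783% in controls. Of the 39 genes, 17 had enough reads to be tested, among them Hoxa2 to Hoxa7, Hoxb2 to Hoxb7, Hoxc4, Hoxc5, Hoxd8 and Hoxd11. Only 1 of the 17, Hoxd11, belonged to paralogue groups 9 to 13. A further 11 genes had between 1 and 50 reads over all 6 libraries and were not tested: Hoxa9, Hoxb1, Hoxb8, Hoxb9, Hoxc6, Hoxc8, Hoxc13, Hoxd3, Hoxd4, Hoxd9 and Hoxd10. Hoxb8, the highest of these in the B cluster, had 26, 1 and 6 reads in CCSP/TGFalpha replicates 1 to 3 and 3, 0 and 8 in control replicates 1 to 3. The other 11 had none: Hoxa10, Hoxa11, Hoxa13, Hoxb13, Hoxc9, Hoxc10, Hoxc11, Hoxc12, Hoxd1, Hoxd12 and Hoxd13. A count of 0 allows up to 3 reads in a library, which is 0.120 to 0.137 CPM at these depths and covers counting error only. Of these 11 genes without a read, 10 lay in paralogue groups 9 to 13, which pattern the trunk end and the limbs.

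**Figure D1:**
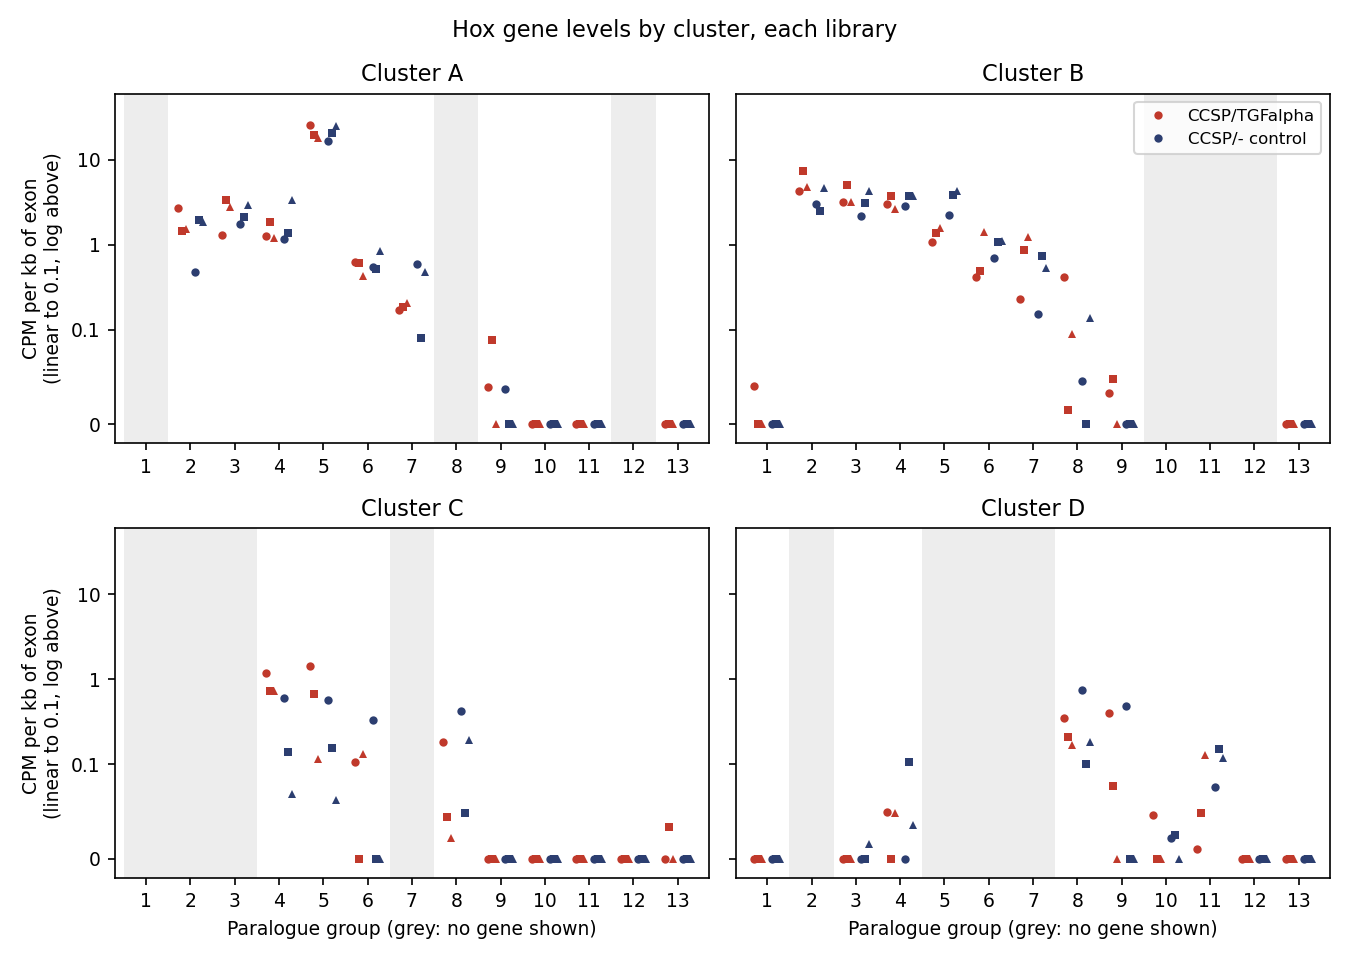
Levels of Hox genes in CPM per kb of exon (y axis, linear up to 0.1 and logarithmic above) against paralogue group (x axis), with a panel for each cluster and grey where no gene is shown. Each point is a library (circle, square and triangle for replicates 1, 2 and 3), with CCSP/TGFalpha in red to the left of controls in blue. Levels peak at Hoxa5 and are at or near 0 from group 9 on in clusters A to C.

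Hoxa5, a regulator of lung and tracheal development in mice, had by far the highest level per kb of any member. It made up 45.2 ± 5.91% of the summed Hox level per kb in CCSP/TGFalpha lungs and 46.1 ± 0.753% in controls (SD, n = 3 each). Its level per kb was 4.71 times that of Hoxb2, the next in order. Clusters A and B, in paralogue groups 1 to 8, held 95 ± 2.42% of the summed level per kb in CCSP/TGFalpha lungs and 96.0 ± 4.46% in controls. In raw reads the 39 genes together had 2379, 2467 and 2009 in CCSP/TGFalpha replicates 1 to 3 and 1853, 1953 and 2457 in control replicates 1 to 3. The summed level was 95.5 ± 9.87 CPM in CCSP/TGFalpha lungs and 92.0 ± 19.01 CPM in controls, and the libraries of both groups overlapped. In bulk tissue, fewer cells of a type and less RNA per cell cannot be told apart.

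One member, Hoxb5, differed between the groups by the test used, and the rest did not pass it. With edgeR's quasi-likelihood test and Benjamini-Hochberg adjustment over 16089 genes, 1 of the 17 tested Hox genes passed an adjusted p of 0.05, and it fell. That is 5.88% of the tested members, against 8.33% of all genes tested in either direction with 5.03% that rose and 3.29% that fell. The number that rose was 0 with edgeR, DESeq2 and limma-voom, and before adjustment 0, 1 and 1 of these tools' higher values had a p under 0.05. Fold changes were above 0 for 8 genes and below 0 for 9, with a median log2 value of -0.11, against 0.01 over all genes tested. CPM values of the groups were fully apart for 2 of the 17 (11.8%), against 33.2% of all genes. A share of called members near or below that of all genes is no result about the Hox genes as a family.

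**Figure D2:**
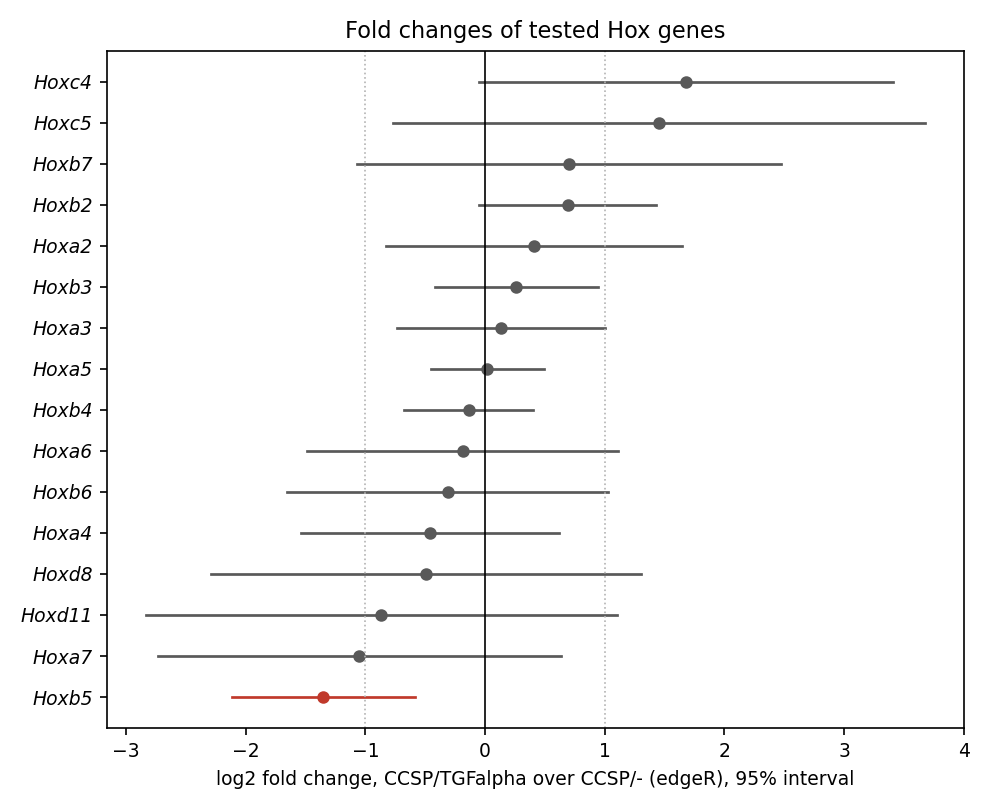
Log2 fold change of CCSP/TGFalpha over CCSP/- lungs (x axis) for 16 of the 17 tested Hox genes (y axis), with 95% intervals from the edgeR fit and dotted lines at -1 and 1. Hoxb5, in red, is the only member called, and every other interval shown includes 0.

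Hoxb5, whose protein takes part in lung branching in mice, was the member that fell. It lies on chromosome 11 from 96303512 to 96306121 (GRCm38, gene ID 15413). Its level was 2.04, 2.63 and 3.01 CPM in CCSP/TGFalpha replicates 1 to 3, against 4.25, 7.37 and 8.03 CPM in control replicates 1 to 3. All TGFalpha libraries lay below all controls, and control replicate 1 was the lowest of its group. The means were 2.56 ± 0.491 CPM in CCSP/TGFalpha lungs and 6.55 ± 2.02 CPM in controls (SD, n = 3 each). The fitted log2 change was -1.35 ± 0.33 (SE), with a 95% interval of -2.12 to -0.59 and an edgeR adjusted p of 0.046.

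This call lay close to the threshold. Leaving out control replicate 2 gave an edgeR adjusted p of 0.1498, and leaving out control replicate 3 gave 0.181. With TGFalpha replicate 1, 2 or 3 left out in turn it was 0.135, 0.0967 and 0.0693. Dropping control replicate 1 gave 0.0312, dropping both libraries of replicate 1 gave 0.0614, limma-voom 0.0603 and DESeq2 0.0054. In each of these fits the log2 change stayed below 0, between -1.60 and -1.19. The RefSeq span of the antisense gene Hoxb5os covers all of Hoxb5, and with no strand setting given their reads cannot be told apart.

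Hoxb5 can also be set against other Hox genes inside each library, which takes the scaling out. The ratio of Hoxb5 to Hoxb4 reads was 0.262, 0.275 and 0.444 in CCSP/TGFalpha replicates 1 to 3, against 0.586, 0.763 and 0.834 in control replicates 1 to 3. The ratio to Hoxa5 averaged 0.0681 ± 0.0241 in CCSP/TGFalpha lungs and 0.166 ± 0.0278 in controls, and that to Hoxb3 averaged 0.200 ± 0.0605 in CCSP/TGFalpha lungs and 0.591 ± 0.0747 in controls (SD, n = 3 each). Values of the groups did not overlap for any of the 3 ratios. They share Hoxb5, which was chosen because it had been called lower, so they describe that same difference and add no separate support. The exact permutation test, two-sided, gave p = 0.1 for each of these 3 ratios and an adjusted p of 0.1, which is the smallest that 3 libraries against 3 can give.

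**Figure D3:**
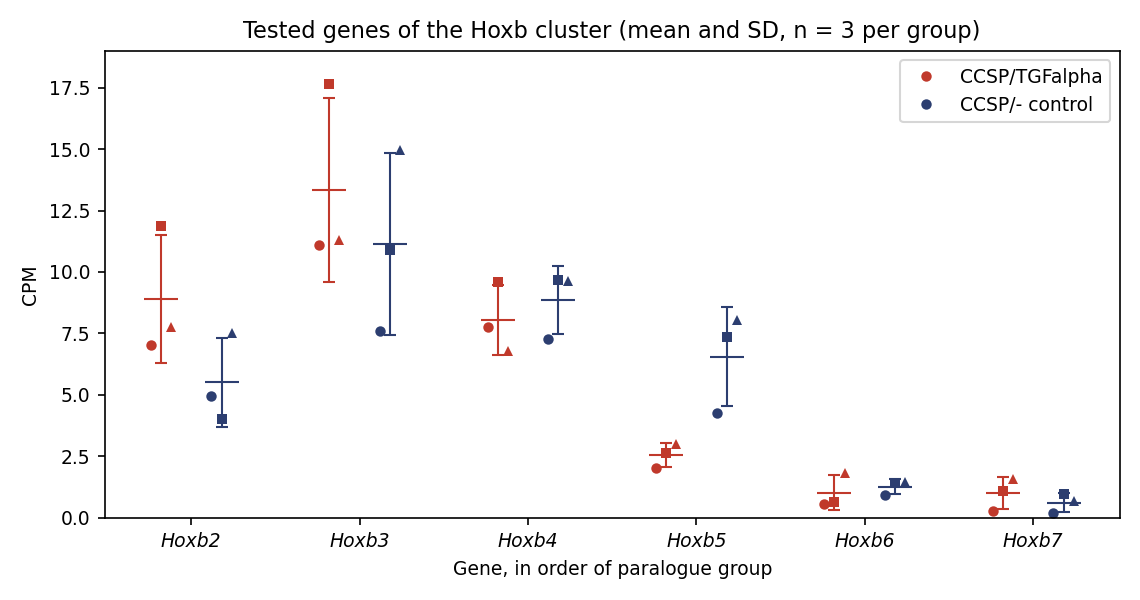
CPM of the 6 tested genes of the Hoxb cluster in each library (circle, square and triangle for replicates 1, 2 and 3), with the mean as a long bar and the SD as whiskers (n = 3 per group), CCSP/TGFalpha in red to the left of controls in blue. Hoxb5 is the gene of this cluster whose groups do not overlap.

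Some marker lists of other cell types had sums that did not overlap between the groups. Over all genes tested, 5.03% rose and 3.29% fell. Other lists had sums that overlapped, among them the mesothelial and haematopoietic lists (1 rise and 1 fall each, of 8 tested) and the alveolar list (0 rises and 1 fall of 11). Of 11 endothelial markers 6 fell, and their summed level was 1165 to 2096 CPM in CCSP/TGFalpha lungs, against 2282 to 4092 CPM in controls. Of 15 fibroblast markers 6 rose, with sums of 5960 to 9047 CPM in CCSP/TGFalpha lungs, against 2024 to 2364 CPM in controls. The median log2 fold change of the fibroblast list was 0.29, and 1 of its markers was lower before adjustment (edgeR p under 0.05). Of 8 airway epithelial markers 2 fell, with sums of 4020.3 to 5598 CPM in CCSP/TGFalpha lungs, against 8101 to 10246 CPM in controls. Of 8 smooth muscle markers 2 rose and 1 fell, with sums of 346 to 793 CPM in CCSP/TGFalpha lungs, against 226 to 320.2 CPM in controls. No marker of these lists was at 0 in all libraries. Endothelial calls depended on single libraries: 10 fell by edgeR when control replicate 1 was dropped and 1 when TGFalpha replicate 1 was. Dropping control replicate 2, control replicate 3 or TGFalpha replicate 2 left 0 calls, with 8, 10 and 9 markers lower before adjustment (p under 0.05), and DESeq2 on all libraries called 11. Airway falls numbered 0 or 1 whichever library was dropped, with 4 or 5 markers lower before adjustment. The part of these lists in the Hoxb5 value was not tested.

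The neighbours of Hoxb5 in the B cluster overlapped between the groups. Hoxb4, known for its part in blood stem cell expansion, was at 7.77, 9.57 and 6.78 CPM in CCSP/TGFalpha replicates 1 to 3 and 7.26, 9.66 and 9.63 CPM in control replicates 1 to 3. Its interval ran from -0.68 to 0.40 on the log2 scale. Hoxb3, a hindbrain and pharyngeal patterning gene, was at 11.1, 17.7 and 11.3 CPM in CCSP/TGFalpha replicates 1 to 3 and 7.58, 10.9 and 15.0 CPM in control replicates 1 to 3. For both genes the ranges of the groups overlapped, and TGFalpha replicate 2 was the highest library for Hoxb3. Hoxb2, which also patterns the hindbrain, was at 7.05, 11.9 and 7.74 CPM in CCSP/TGFalpha replicates 1 to 3 and 4.97, 4.03 and 7.53 CPM in control replicates 1 to 3, so that control replicate 3 lay above TGFalpha replicate 1. The difference was 0.69 ± 0.32 on the log2 scale (SE, edgeR adjusted p = 0.210). Hoxb6 and Hoxb7, at 1.02 ± 0.716 and 0.999 ± 0.654 CPM in CCSP/TGFalpha lungs and 1.27 ± 0.299 and 0.616 ± 0.385 CPM in controls, had log2 fold changes of -0.31 ± 0.58 and 0.70 ± 0.77 (SE), neither called. The RefSeq span of Hoxb3 includes Hoxb4, but their exons did not overlap in the transcripts used for exon lengths. The division of reads between them rests on the authors' counting.

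Hoxa5 had the narrowest interval of the tested members. Hoxa5 was at 48.0, 36.7 and 33.4 CPM in CCSP/TGFalpha replicates 1 to 3 and at 31.1, 38.4 and 47.1 CPM in control replicates 1 to 3, and the groups overlapped almost fully. The log2 value was 0.02 ± 0.21 (SE, edgeR adjusted p = 0.964), and the 95% interval ran from 0.731 to 1.4 times the level of controls. The sign of this value turned without control replicate 1 (-0.13) or TGFalpha replicate 1 (-0.15). Hoxa3, which patterns pharyngeal organs such as thymus and parathyroid, was at 3.40, 8.75 and 7.12 CPM in CCSP/TGFalpha replicates 1 to 3 and 4.53, 5.50 and 7.57 CPM in control replicates 1 to 3. Hoxa4, which patterns the cervical spine in mice, was at 1.996, 2.96 and 1.93 CPM in CCSP/TGFalpha replicates 1 to 3 and 1.89, 2.20 and 5.38 CPM in control replicates 1 to 3, where control replicate 3 was the high one. The sign of Hoxa3 turned without control replicate 1 (-0.03) or TGFalpha replicate 2 (-0.15), and that of Hoxa4 without control replicate 3 (0.16).

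Hoxa2, a hindbrain gene at the anterior end, and Hoxa6 and Hoxa7, which pattern the thorax, had log2 fold changes between -1.05 and 0.41, and none of these 3 was called. Hoxa7 was low throughout, at 0.376 ± 0.0398 CPM in CCSP/TGFalpha lungs and 0.782 ± 0.532 CPM in controls (SD, n = 3 each). Over the 17 tested genes, 4 had 95% intervals that stayed within 1 log2 unit of 0 on either side: Hoxa3, Hoxa5, Hoxb3 and Hoxb4. For the other genes not called, a 2-fold difference lay within the interval, which includes the spread between libraries. The median SE of the tested Hox genes was 0.54 on the log2 scale, against 0.23 over all genes tested. The RefSeq span of Hoxa3 takes in Hoxa4, Hoxa5 and Hoxa6. In the transcripts used for exon lengths, exons of Hoxa3 overlapped the antisense genes Hoxaas2 (390 bases) and Hoxaas3 (76 bases), and no other Hox gene. The authors' counting rule is not given.

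The C cluster was low and uneven between libraries. Hoxc4, a neck patterning gene in mice, was at 2.38, 1.44 and 1.47 CPM in CCSP/TGFalpha replicates 1 to 3, against 1.20, 0.275 and 0.137 CPM in control replicates 1 to 3. All TGFalpha libraries lay above all controls, but control replicate 1 came close to them. On the log2 scale this was 1.68 ± 0.76 (SE, edgeR adjusted p = 0.196), and without control replicate 1 it was 3.06 with an adjusted p of 0.0492. Without both libraries of replicate 1 it was 2.78, with an adjusted p of 0.104. Hoxc5, its neighbour and a member of paralogue group 5, was at 4.16, 1.97 and 0.335 CPM in CCSP/TGFalpha replicates 1 to 3, against 1.68, 0.458 and 0.182 CPM in control replicates 1 to 3, so that the groups overlapped. Its log2 fold change of 1.46 ± 0.97 (SE) was not called (edgeR adjusted p = 0.37). It was 0.56 without TGFalpha replicate 1 and 2.72 without control replicate 1, and the adjusted p stayed above 0.05 whichever library was dropped (0.163 to 0.819). Over the 9 genes of the C cluster the summed level was 7.05, 3.57 and 2.05 CPM in CCSP/TGFalpha replicates 1 to 3, against 4.21, 0.824 and 0.684 CPM in control replicates 1 to 3. In both groups replicate 1 was the highest. The log2 ratio of the group means of this sum was 1.15, and 2.49 without control replicate 1.

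Hoxc6, Hoxc8, Hoxd8 and Hoxd9 had most of their reads in the libraries with the most skeletal muscle transcript. Hoxc8, which patterns the thoracic skeleton, had 8, 2 and 1 reads in CCSP/TGFalpha replicates 1 to 3 and 20, 2 and 8 in control replicates 1 to 3. Hoxd9, a gene of trunk and limb, had 20, 4 and 0 reads in CCSP/TGFalpha replicates 1 to 3 and 26, 0 and 0 in control replicates 1 to 3. Hoxd8 was at 0.977, 0.575 and 0.46 CPM in CCSP/TGFalpha replicates 1 to 3 and 2.05, 0.275 and 0.502 CPM in control replicates 1 to 3. Replicate 1 was the highest library of its group for all 3 genes. Summed over these genes and Hoxc6, a set of 4 chosen after their values were seen, the reads were 55, 20 and 17 in CCSP/TGFalpha replicates 1 to 3 and 110, 8 and 19 in control replicates 1 to 3. Hoxc6 alone had 4, 0 and 5 reads in CCSP/TGFalpha replicates 1 to 3 and 13, 0 and 0 in control replicates 1 to 3. Its highest TGFalpha library was thus replicate 3. Hoxd4, outside this set, had 3, 0 and 3 reads in CCSP/TGFalpha replicates 1 to 3 and 0, 6 and 2 in control replicates 1 to 3. Most reads of Hoxd4 were thus outside replicate 1. The skeletal muscle sums given above were also highest in replicate 1 of both groups, and their part in these Hox reads was not tested. The largest value of the muscle list was in TGFalpha replicate 1, while the largest Hox sum was in control replicate 1.

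**Figure D4:**
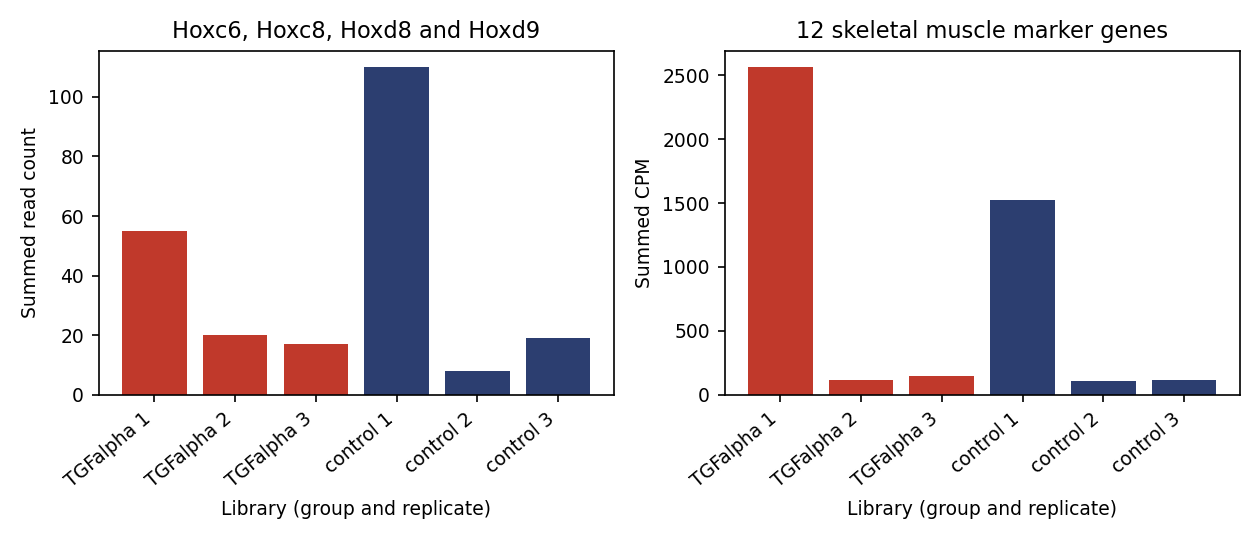
Summed reads of Hoxc6, Hoxc8, Hoxd8 and Hoxd9 (left, y axis in reads) and summed CPM of 12 skeletal muscle markers (right) in each library, with CCSP/TGFalpha in red to the left of controls in blue. Both are highest in replicate 1 of each group, at 55 and 110 reads.

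Hoxd8, a trunk patterning gene, was tested and not called: its log2 value of -0.50 ± 0.78 (SE, adjusted p by edgeR 0.719) turned to 0.77 without control replicate 1 and to 0.41 without both libraries of replicate 1. Hoxd11, a limb and kidney patterning gene and the most posterior member tested, did not follow the muscle list. It was at 0.0425, 0.205 and 0.544 CPM in CCSP/TGFalpha replicates 1 to 3 and 0.321, 0.641 and 0.502 CPM in control replicates 1 to 3, with control replicate 1 the lowest control. The log2 value was -0.87 ± 0.86 (SE, adjusted p by edgeR 0.550), and the groups overlapped. It was -1.93 without TGFalpha replicate 3 and -0.37 without TGFalpha replicate 1, not called in either. Its RefSeq span overlaps that of Hoxd10, which had 4 reads over all 6 libraries, with no exon overlap in the transcripts used for exon lengths.

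No call was made among the DNA-binding partners of the Hox proteins. None of the 10 tested Pbx, Meis and Pknox family genes and their binding protein Pbxip1 passed with edgeR, DESeq2 or limma-voom, and before adjustment 1 was lower with each tool (p under 0.05). Over all genes tested edgeR called 8.33%, so 0 of 10 is no result about these partners as a set. That gene, Pknox2, was at 8.20, 10.1 and 12.9 CPM in CCSP/TGFalpha replicates 1 to 3 and 13.2, 19.1 and 15.2 CPM in control replicates 1 to 3. The groups did not overlap, and the log2 value was -0.61 ± 0.23 (SE, adjusted p by edgeR 0.140). Pbx4, lower at -1.52 ± 0.72, and Pknox1, higher at 0.29 ± 0.15, also did not overlap and were not called. Of all genes tested, 33.2% did not overlap. The summed level of the partner genes was 430.2 ± 23.0 CPM in CCSP/TGFalpha lungs and 432 ± 51.3 CPM in controls (SD, n = 3 each).

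Among 20 trithorax and 28 Polycomb list genes, edgeR called 0 and 2, against 8.33% of all genes tested. None of the 20 trithorax and activator genes passed with edgeR or limma-voom, although before adjustment 2 were higher and 3 lower in both (p under 0.05). With DESeq2 1 fell: Kmt2c, a histone methyltransferase gene, at 102 ± 20.7 CPM in CCSP/TGFalpha lungs and 154 ± 11.9 CPM in controls (edgeR adjusted p = 0.083, DESeq2 adjusted p = 0.0244). Of 28 Polycomb genes 1 rose and 1 fell with edgeR and with limma-voom, while 2 rose and 3 fell with DESeq2, and before adjustment edgeR had 5 higher and 4 lower (p under 0.05). Rbbp7, a histone-binding subunit, rose to 270 ± 23.9 CPM in CCSP/TGFalpha lungs, against 162 ± 4.68 CPM in controls, and Pcgf5, a subunit of Polycomb repressive complex variants, fell to 10.1 ± 2.43 CPM in CCSP/TGFalpha lungs, against 20.5 ± 2.77 CPM in controls (SD, n = 3 each). Rbbp7 passed when TGFalpha replicate 3 was dropped and not when any other library was (edgeR adjusted p between 0.0529 and 0.104), and Pcgf5 did not pass when any 1 library was dropped (0.0510 to 0.144).

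Several genes of retinoic acid transport, synthesis and breakdown rose. Of 20 tested genes 6 rose and 1 fell, where 5.03% of all genes rose and 3.29% fell. Their median log2 fold change was 0.28, against 0.01 over all genes tested. The summed level of the list was 1580 ± 135 CPM in CCSP/TGFalpha lungs and 1561 ± 220 CPM in controls (SD, n = 3 each). For this sum the libraries of the groups overlapped. Aldh1a3, which makes retinoic acid from retinal, was at 21.6, 23.6 and 9.04 CPM in CCSP/TGFalpha replicates 1 to 3, against 0.923, 0.55 and 1.37 CPM in control replicates 1 to 3 (log2 fold change 4.25 ± 0.48, SE, edgeR adjusted p = 0.00294). Every TGFalpha library was above every control, and Aldh1a3 was called whichever library was left out.

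The other calls of this list depended on single libraries for most genes. Aldh1a2, another retinoic acid synthase, rose to 121 ± 34.5 CPM in CCSP/TGFalpha lungs, against 23.1 ± 13.74 CPM in controls, Rdh10, a retinol dehydrogenase, to 64.8 ± 3.71 CPM in CCSP/TGFalpha lungs, against 32.0 ± 3.46 CPM in controls, and Cyp26a1, which breaks retinoic acid down, to 1.71 ± 0.163 CPM in CCSP/TGFalpha lungs, against 0.0839 ± 0.0805 CPM in controls (SD, n = 3 each). Stra6, a retinol transporter, rose to 3.89 ± 1.85 CPM in CCSP/TGFalpha lungs, against 0.428 ± 0.445 CPM in controls, and the receptor gene Rara fell to 34.3 ± 1.62 CPM in CCSP/TGFalpha lungs, against 51.5 ± 5.16 CPM in controls. Aldh1a2 lost its call when replicate 1 or 2 of the CCSP/TGFalpha lungs or control replicate 2 was dropped (edgeR adjusted p = 0.0868, 0.0718 and 0.1004), Rdh10 without control replicate 3 (0.0549), and Cyp26a1 without any 1 library other than control replicate 1 (0.0523 to 0.12). Dropping replicate 2 or 3 of the controls, or replicate 1 or 2 of the CCSP/TGFalpha lungs, left 3 rises, dropping TGFalpha replicate 3 left 4 and dropping control replicate 1 left 5. By edgeR 0 genes of the list fell in any of these fits, with 1 to 3 lower before adjustment (p under 0.05). Stra6 and Rara were chosen after their values were seen.

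**Figure D5:**
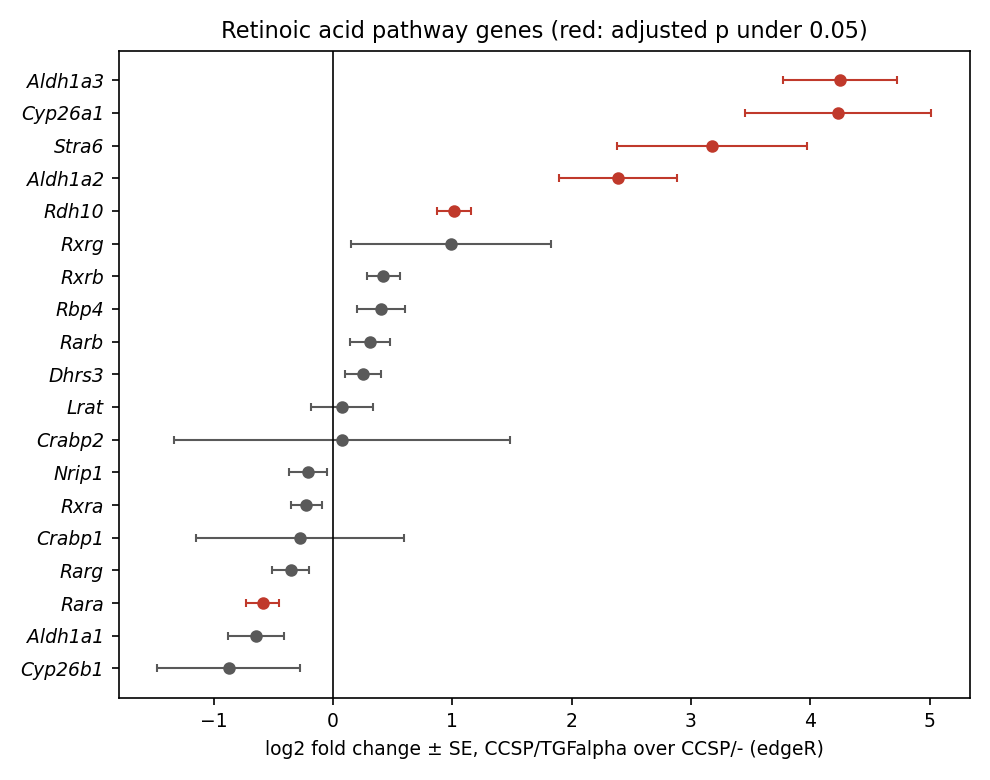
Log2 fold change of CCSP/TGFalpha over CCSP/- lungs (x axis, points with SE bars from edgeR) for 19 of the 20 tested retinoic acid pathway genes (y axis), with called genes in red. Of the called genes shown, 5 lie above 0 and 1, Rara, lies below 0.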

How the data were processed

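Lung total RNA was sequenced after standard Illumina preparation, as the protocols in the labels state. The authors deposited raw counts per gene ID, whole numbers with no normalization. The submitters' processing notes name bcl2fastq, CASAVA 1.8, TopHat, DESeq and the build mm10. The counting tool, its strand setting and the annotation are not given in the sources used here. Columns were matched to samples by their description labels.

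Of 24061 gene IDs, 23976 were named from RefSeq genes on GRCm38.p6, the assembly behind mm10. Exon lengths are merged exons of GENCODE M21 transcripts matched to RefSeq accessions (39 of 39 Hox genes). Promoters are from RefSeq on GRCm38.p6. Results for some genes are not reported here. The members and lists were chosen with earlier results of these data known.

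Groups were compared in edgeR 4.0.16 (R 4.3.3) by its quasi-likelihood test, two-sided, after TMM scaling and filterByExpr, with group as the single term. Adjusted p-values are Benjamini-Hochberg over 16089 genes (threshold 0.05). SEs and 95% intervals come from the coefficient and its F statistic. The common biological coefficient of variation was 0.295. The step was tested on simulated counts. The rule for named genes took every called Hox gene, the 3 others per cluster with the highest level per kb, and up to 5 called members of each list of cofactors, regulators and neighbours, or its smallest adjusted p where none was called. The alternatives were 2 other scalings, dropping the filter, a minimum of 1 CPM in 3 libraries, limma-voom (limma 3.58.1), DESeq2 1.42.0, a replicate block, each library left out, and both libraries of replicate 1 left out. No libraries of a group agreed within sampling noise (chi-square over degrees of freedom of 48.6 or more).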

Additional observations from a re-analysis of the deposited data

How the results depend on the processing

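The 0 Hox genes called higher and the 1 called lower were the same under library totals, DESeq2 size factors, no filter, the 1 CPM filter, DESeq2 and the replicate block. With limma-voom, and without both libraries of replicate 1, 0 Hox genes were called lower (before adjustment, 1 was lower in each, p under 0.05). With 1 library left out the Hox genes called higher numbered 0 to 1 and those called lower 0 to 1. Over all genes, 810 rose and 530 fell, against 1281 and 1225 with DESeq2, 307 and 166 without both libraries of replicate 1, and 204 to 606 and 34 to 482 with 1 library left out. The sums over all 39 genes and over clusters A, B and D moved by less than the spread between libraries, while that of cluster C went to 2.49 without control replicate 1 (range 0.56 to 2.49 with 1 library left out). The other log2 ratios changed sign without control replicate 1. They went from 0.05 to -0.08 for all 39 genes, from 0.01 to -0.15 for cluster A, from 0.05 to -0.12 for B and from -0.49 to 0.22 for D. Cluster A also changed sign without TGFalpha replicate 1 (-0.09) or control replicate 2 (-0.00048), and cluster B without TGFalpha replicate 2 (-0.12). Among members whose values are given, log2 fold changes changed sign with 1 library left out for Hoxa2 (-0.02 to 0.70), Hoxa6 (-0.31 to 0.05), Hoxa3 (-0.15 to 0.44), Hoxa4 (-0.73 to 0.16), Hoxa5 (-0.15 to 0.17) and Hoxd8 (-0.92 to 0.77), and without both libraries of replicate 1 for Hoxa2 (-0.35), Hoxa5 (-0.29) and Hoxd8 (0.41); the cause was not tested. Deviations from the group means correlated at 0.421, -0.0516 and 0.222 between the groups for replicate numbers 1 to 3. The best-matching control was replicate 1 for TGFalpha replicate 1, replicate 3 for TGFalpha replicate 2 and replicate 2 for TGFalpha replicate 3. With so few libraries these values cannot decide whether replicate numbers paired the libraries. With the replicate block, 1470 genes were called against 1340, 1 Hox gene fell and 0 rose with edgeR (2 higher at an unadjusted p under 0.05), and Hoxb5 had an adjusted p of 0.0358. The 39 members together had 1853 to 2467 reads per library; depth and spread between libraries were not separated.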

Other observations

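Few reads came from noncoding genes of the Hox clusters. Of 13 in the table, 11 had no read in any library, among them Hotair, Hottip and Haglr. Hoxaas3, antisense in the A cluster, had 5, 7 and 5 reads in CCSP/TGFalpha replicates 1 to 3 and 6, 8 and 3 in control replicates 1 to 3. The row of the microRNA gene Mir10a, which lies within the span of Hoxb3, had 0, 7 and 19 reads in CCSP/TGFalpha replicates 1 to 3 and 4, 10 and 2 in control replicates 1 to 3, too few to test.

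Genes next to the clusters included 2 that fell of 12 tested with edgeR and limma-voom, and 3 with DESeq2, where 3.29% of all genes tested fell with edgeR. Ttll6, a tubulin-modifying enzyme gene of cilia beside the B cluster, was at 2.46, 2.10 and 3.77 CPM in CCSP/TGFalpha replicates 1 to 3, against 8.42, 8.24 and 6.98 CPM in control replicates 1 to 3 (log2 fold change -1.50 ± 0.30, SE, edgeR adjusted p = 0.025). Lnpk, an endoplasmic reticulum shaping gene beside the D cluster, was at 22.0, 27.9 and 24.2 CPM in CCSP/TGFalpha replicates 1 to 3, against 42.8, 39.4 and 42.1 CPM in control replicates 1 to 3 (-0.75 ± 0.15). Every TGFalpha library lay below every control for both. Ttll6 was called without TGFalpha replicate 3 and Lnpk without TGFalpha replicate 2, and neither was called without any other single library (adjusted p between 0.0525 and 0.107). The transcripts of Evx1 and Evx2, homeobox genes at the posterior ends of clusters A and D, were at 0 in all libraries.

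Some other patterning factors of the lung rose. Of 21 tested, 3 rose and 0 fell with edgeR, with 4 lower before adjustment (p under 0.05), while 3 fell with DESeq2 and 1 with limma-voom. Over all genes tested, 5.03% rose and 3.29% fell with edgeR. The list as a whole did not rise: its median log2 fold change was -0.03. Its summed level was 1008 ± 179 CPM in CCSP/TGFalpha lungs and 1234 ± 232 CPM in controls (SD, n = 3 each), with overlapping libraries. Sox9, a factor of distal lung buds and of cartilage, was at 11.7, 23.5 and 12.1 CPM in CCSP/TGFalpha replicates 1 to 3, against 0.963, 0.595 and 0.639 CPM in control replicates 1 to 3. Twist1, a mesenchymal factor, had 634, 459 and 331 reads in CCSP/TGFalpha replicates 1 to 3, against 2, 0 and 0 reads in control replicates 1 to 3. Gata6, an endoderm factor, was at 82.2, 87.8 and 85.9 CPM in CCSP/TGFalpha replicates 1 to 3, against 42.8, 57.3 and 48.6 CPM in control replicates 1 to 3, and was called without control replicate 2 but not without any other single library (edgeR adjusted p = 0.0504 to 0.12). Sox9 and Twist1 were called without any 1 library.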
